A study of Mus musculus with 4 samples.

Results

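Ptprm, Magi1 and Pcdh9 encode 3 proteins of cell-cell contacts whose transcripts were listed among the alternative splicing (AS) events that differed between control and NOVA2-overexpressing mouse endothelial cells (ECs). They were taken by gene name from the deposited table, in which each had 1 event, so that 3 of 1075 events and 3 of 869 genes are described. The table lists only events whose inclusion differed between the groups, so the members were chosen by the measured PSI of the 4 libraries, through the contrast itself. These PSI values are given as a description, with no test. RNA-seq was performed on 4 libraries of mouse ECs (moEC), 2 from control cells and 2 from NOVA2-overexpressing cells. Control cells had been transduced with a lentivirus carrying the HA tag alone. NOVA2-overexpressing cells had received human NOVA2 with an HA tag under the CMV promoter (pLenti-GIII-CMV human NOVA2-HA), which is active in most cell types. Cells of both groups were stably transduced and kept under puromycin. The NOVA2-overexpressing cells were grown sparse. The sources used here do not state whether duplicates were separate cultures, and the spread between them may be technical. EC markers and the level of NOVA2 itself were not analysed here, because the table holds splicing values only.

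NOVA2 is an RNA-binding protein, best known from neurons and also present in ECs, that binds YCAY tetramers (Y is C or T in DNA letters) in pre-mRNA and changes the choice of exons. In textbook accounts, its binding within or upstream of an exon favours skipping, while binding downstream favours inclusion. ECs hold together through adherens and tight junctions, in which transmembrane adhesion proteins are tied by scaffolds to the actin cytoskeleton. PTPRM is a receptor tyrosine phosphatase that binds its own kind on the neighbouring cell and is found with cadherins at contacts. MAGI1 is a scaffold with several PDZ domains at tight and adherens junctions. PCDH9 is a nonclustered protocadherin, a cadherin-like adhesion receptor studied mostly in the nervous system.

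All 3 events had a higher percent spliced in (PSI) in both NOVA2-overexpressing libraries than in both control libraries. For an exon, PSI is the mean of the reads on its inclusion junctions as a percent of that mean plus the skipping reads. For an alternative splice site, it is the share of junction reads that use the listed site. The mean PSI of an exon of Ptprm was 20.2% in control and 43.4% in NOVA2-overexpressing ECs, and that of an exon of Magi1 was 42.0% and 66.3%. For Pcdh9, an inner 3′ splice site had a share of 42.0% and 70.5%. All 3 differences were at least 10 points, a size reached in either direction by 53.1% of the deposited events and in the higher direction by 33.0%. Within classes, 19.9% of cassette exons and 55.5% of Alt3 events, which use alternative 3′ splice sites, were higher by that size, while 33.2% and 0.00% were lower. As the table was made from the same contrast, nothing is read from that count. A two-sided exact permutation test of 2 libraries against 2 has 0.333 as its smallest p.

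The Ptprm event is a cassette exon of 51 nt at chr17:67046993-67047043 (mm9, minus strand). It lies within the gene (ENSMUSG00000033278.8, chr17:67016188-67703799) and is in none of its 3 transcripts in the GENCODE vM1 annotation. In the annotated transcript with 31 exons it falls into the intron between exon 22, of 117 nt, and exon 23, of 155 nt. The intron before it has 662 nt and the one after it 3726 nt. The Magi1 event is a cassette exon of 84 nt at chr6:93654271-93654354 (mm9, minus strand) in ENSMUSG00000045095.9 (chr6:93625449-94233316). It is a coding exon of 3 of the 5 annotated transcripts, as exon 15 of one and exon 14 of the others, and is left out of the transcript with 22 exons. Its introns have 3643 nt upstream and 2895 nt downstream. In the 2 sequences that follow, the exon is in capitals and 25 nt of each intron in lower case, on the transcribed strand. They are shown because they are the stretches that were included more often.
Ptprm exon: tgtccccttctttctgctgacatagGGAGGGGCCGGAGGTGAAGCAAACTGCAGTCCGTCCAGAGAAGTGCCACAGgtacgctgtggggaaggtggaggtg
Magi1 exon: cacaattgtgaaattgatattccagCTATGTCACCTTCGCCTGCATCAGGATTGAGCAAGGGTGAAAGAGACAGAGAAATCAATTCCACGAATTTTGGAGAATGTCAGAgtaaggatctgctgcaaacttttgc

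The Pcdh9 event is a choice between 2 alternative 3′ splice sites (Alt3) of the same exon, joined to the donor of exon 1 across an intron of 558816 nt. The gene, ENSMUSG00000055421.2, lies on the minus strand at chr14:93414731-94287951. With the outer site, which is annotated, the exon has 202 nt and is exon 3 of the transcript with 4 exons and exon 2 of the one with 3. With the inner site, which is not in the GENCODE vM1 annotation, the first 126 nt (chr14:93725974-93726099) are left out and 76 nt remain (chr14:93725898-93725973). The transcript with 4 exons has a further exon of 102 nt between this exon and exon 1. The deposited PSI is that of the inner site, so a higher PSI means that the 126 nt were left out more often. Deposited Alt3 events were 119 with a higher and 0 with a lower PSI, so the direction by itself says only which of the sites was listed. In the sequence that follows, lower case marks first 25 nt of intron and then the 76 nt common to both forms, with the 126 nt between them in capitals.
Pcdh9 exon: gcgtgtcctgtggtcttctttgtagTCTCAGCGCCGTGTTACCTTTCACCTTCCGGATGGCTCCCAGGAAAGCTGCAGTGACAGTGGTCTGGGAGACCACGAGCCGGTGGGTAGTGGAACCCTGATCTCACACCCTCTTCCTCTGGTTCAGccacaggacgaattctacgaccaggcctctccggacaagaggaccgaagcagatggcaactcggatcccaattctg

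Ptprm had a PSI of 19.5% in control 1 and 20.8% in control 2. It was 37.7% in NOVA2-overexpressing 1 and 49.2% in NOVA2-overexpressing 2. The groups did not overlap, and the closest libraries of different groups were 16.9 points apart. The group means were 20.2% ± 0.919 for control and 43.4% ± 8.13 for NOVA2-overexpressing ECs (± SD, n = 2 each). This is a difference of 23.3 points and a ratio of 2.15. The duplicates of control ECs were 1.30 points apart and those of NOVA2-overexpressing ECs 11.5 points, a distance exceeded by 3.35% of the deposited events in the latter group. Of the 3 events it was the one with the largest distance between duplicates, and without NOVA2-overexpressing 2 the difference was 17.5 points.

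Reads behind the Ptprm values, corrected by vast-tools for mappability, numbered 51 and 62 in the control libraries and 142 and 99 in NOVA2-overexpressing 1 and 2. The 95% Wilson intervals of the PSI reached from 10.9% to 32.3% and from 12.6% to 32.5% in the control libraries. In the NOVA2-overexpressing libraries they reached from 30.1% to 45.9% and from 39.6% to 58.9%. NOVA2-overexpressing 1 thus overlapped both control libraries, and NOVA2-overexpressing 2 overlapped neither. On the reads summed over each group, the PSI was 20.2% with an interval of 13.9% to 28.5% in control ECs and 42.4% with 36.3% to 48.7% in NOVA2-overexpressing ECs. Such intervals hold at best for counting error, because copies made by PCR are counted as separate reads. For cassette exons they are also too narrow, as inclusion is counted on both sides of the exon and skipping only once. With the inclusion junctions averaged, the intervals on summed reads were 13.9% to 30.2% in control ECs and 35.8% to 50.6% in NOVA2-overexpressing ECs.

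The exon of Ptprm was counted on 2 inclusion junctions and 1 skipping junction. In control 1 there were 8 reads on the upstream inclusion junction, 9 on the downstream one and 34 on the skipping junction. Control 2 had 5, 17 and 40 reads in the same order, NOVA2-overexpressing 1 had 30, 49 and 63, and NOVA2-overexpressing 2 had 29, 37 and 33. The downstream junction was the better covered in all 4 libraries, by a factor of 1.13 to 3.40, the largest in control 2. Taken from the upstream junction alone, the PSI was 19.05% and 11.1% in control ECs and 32.3% and 46.8% in NOVA2-overexpressing ECs. From the downstream junction alone it was 20.9% and 29.8% against 43.8% and 52.9%. Both junctions gave higher values in each NOVA2-overexpressing library.

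Magi1 had a PSI of 47.1% in control 1 and 37.0% in control 2, and of 63.0% in NOVA2-overexpressing 1 and 69.5% in NOVA2-overexpressing 2. The groups did not overlap, with a gap of 16.0 points between the closest libraries. Here the control libraries were further apart, by 10.1 points, than the NOVA2-overexpressing ones, by 6.46 points. The group means were 42.0% ± 7.11 for control and 66.3% ± 4.57 for NOVA2-overexpressing ECs (± SD, n = 2 each), a difference of 24.2 points and a ratio of 1.58. By these values the longer form of the scaffold's transcript was the less frequent one in both control libraries and the more frequent one in both NOVA2-overexpressing libraries.

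For Magi1 the reads numbered 50, 87, 97 and 100 in control 1, control 2, NOVA2-overexpressing 1 and NOVA2-overexpressing 2. Control 1, the shallowest, was scored LOW for coverage by vast-tools. Its interval of 33.9% to 60.6% held 50% and overlapped that of NOVA2-overexpressing 1, from 53.1% to 72.0%, and, by its upper end, that of NOVA2-overexpressing 2, from 59.9% to 77.7%. The interval of control 2 ran from 27.6% to 47.5% and overlapped neither. On summed reads, the PSI was 40.7% (32.8% to 49.0%) in control ECs and 66.3% (59.5% to 72.5%) in NOVA2-overexpressing ECs. With the inclusion junctions averaged, these intervals widened to 31.3% to 50.4% and 57.3% to 74.1%.

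The reads on the upstream, downstream and skipping junctions of the Magi1 exon were 20, 12 and 18 in control 1 and 23, 24 and 40 in control 2. They were 31, 44 and 22 in NOVA2-overexpressing 1 and 39, 43 and 18 in NOVA2-overexpressing 2. Skipping reads were thus fewest in control 1 and NOVA2-overexpressing 2, and most in control 2. The upstream junction alone gave a PSI of 52.6% and 36.5% in control ECs and 58.5% and 68.4% in NOVA2-overexpressing ECs, a mean difference of 18.9 points. From the downstream junction the values were 40.0% and 37.5% against 66.7% and 70.5%, a mean difference of 29.8 points. The groups did not overlap on either junction, but on the upstream one control 1 and NOVA2-overexpressing 1 lay close together.

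Pcdh9 used the inner site in 38.5% of reads in control 1, 45.5% in control 2, 66.7% in NOVA2-overexpressing 1 and 74.3% in NOVA2-overexpressing 2. The groups did not overlap and were 21.2 points apart at the closest. The group means were 42.0% ± 4.94 for control and 70.5% ± 5.39 for NOVA2-overexpressing ECs (± SD, n = 2 each), a difference of 28.5 points, and duplicates were 6.99 and 7.62 points apart. In other terms, the annotated outer site, which keeps the 126 nt, took 61.5% and 54.5% of the reads in control ECs and 33.3% and 25.7% in NOVA2-overexpressing ECs. By these values it was the major site in both control libraries and the minor one in both NOVA2-overexpressing libraries.

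The Pcdh9 event was the thinnest of the 3 in reads. Inner and outer sites had 10 and 16 reads in control 1, 10 and 12 in control 2, 28 and 14 in NOVA2-overexpressing 1 and 26 and 9 in NOVA2-overexpressing 2. The inner site thus had more reads in the NOVA2-overexpressing libraries, and the outer one had 9 to 16. These counts are not scaled to depth. Reads over all deposited events were 124374 and 155864 in control 1 and 2, and 193436 and 182795 in NOVA2-overexpressing 1 and 2. Similar counts of the outer site are therefore a smaller share in the latter. Control 2 was scored VLOW, and control 1 and NOVA2-overexpressing 2 were scored LOW. The intervals of the control libraries, from 22.4% to 57.5% and from 26.9% to 65.3%, held 50% and overlapped that of NOVA2-overexpressing 1, from 51.6% to 79.0%. Only the interval of NOVA2-overexpressing 2, from 57.9% to 85.8%, lay above that of control 1. The PSI on summed reads was 41.7% (28.8% to 55.7%) in control ECs and 70.1% (59.2% to 79.2%) in NOVA2-overexpressing ECs. Other acceptors joined to the same donor had 4 reads in NOVA2-overexpressing 1 and 0 in the other libraries.

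**Figure D1:**
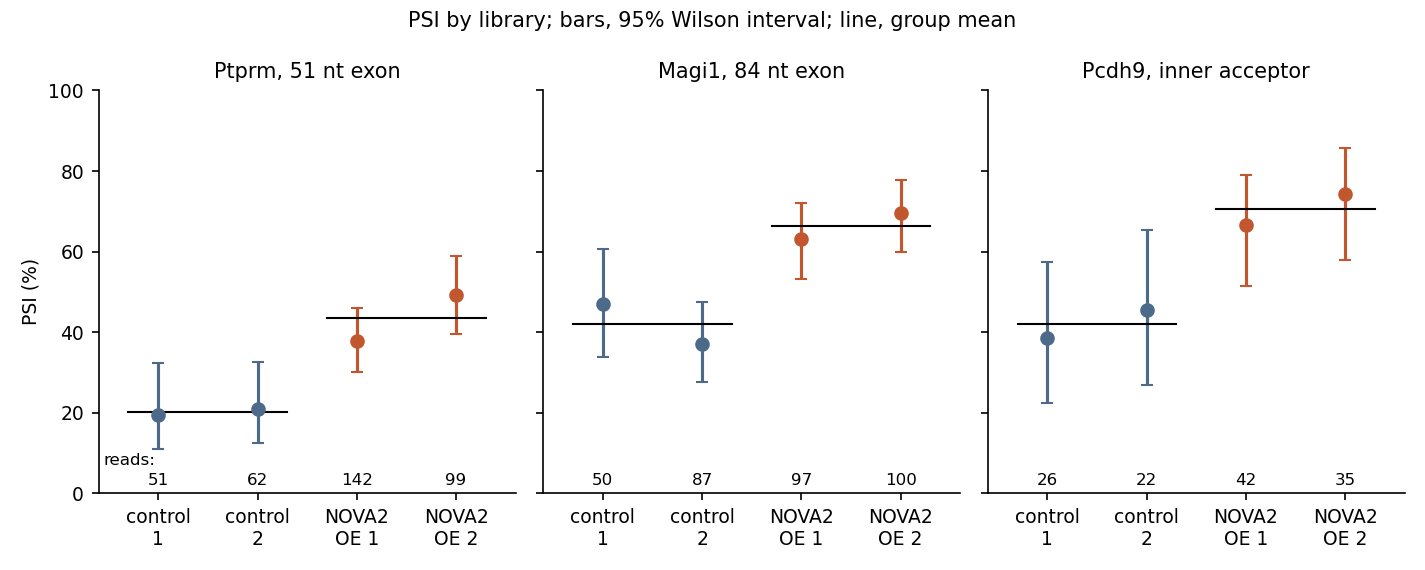
PSI in percent of the Ptprm exon, the Magi1 exon and the inner acceptor of Pcdh9 in the 2 control (blue) and 2 NOVA2-overexpressing (OE, orange) libraries, with 95% Wilson intervals as bars, group means as lines and reads printed at the bottom. Points of the groups do not overlap in any panel, whereas intervals of single libraries do, most for Pcdh9 with 22 to 42 reads.

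**Figure D2:**
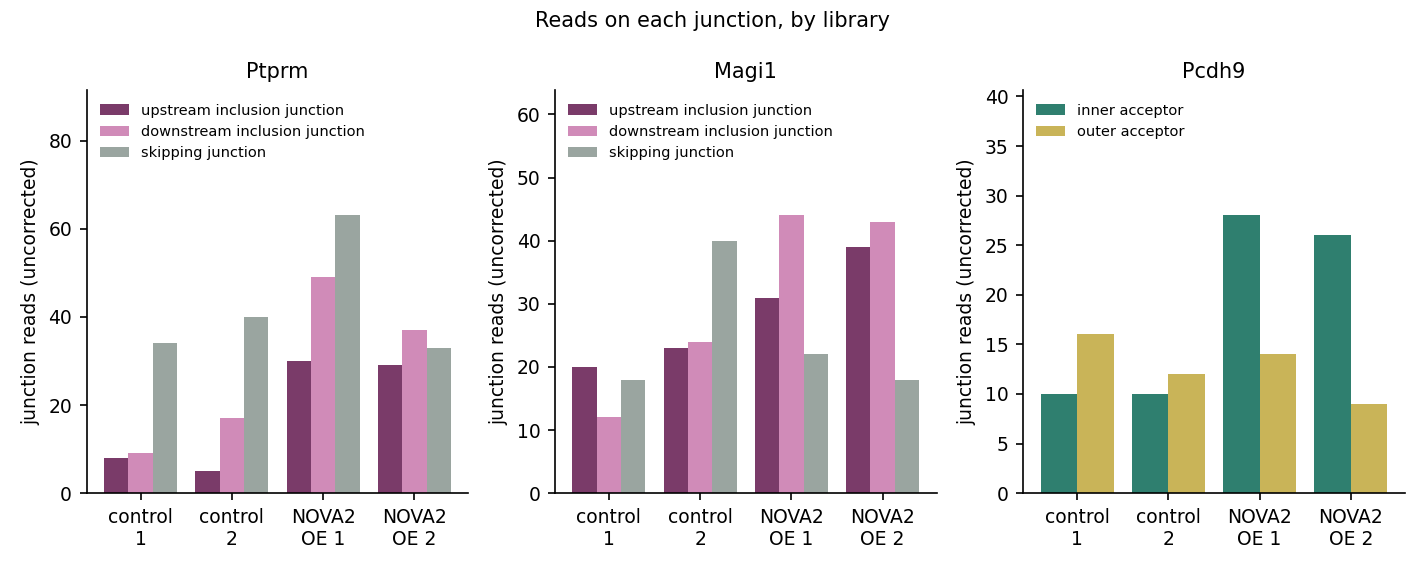
Uncorrected reads on each junction by library, for the upstream inclusion, downstream inclusion and skipping junctions of Ptprm and Magi1 and for both acceptors of Pcdh9, each panel with its own scale from 0. In Magi1 the skipping junction falls below both inclusion junctions in the NOVA2-overexpressing (OE) libraries, and in Pcdh9 the inner acceptor passes the outer one there.

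Intervals of the summed reads did not overlap between groups for all 3 members, as for 40.2% of the deposited events in either direction and 20.6% in the higher direction. At a level of 99%, the intervals of Ptprm and Magi1 were still apart and those of Pcdh9 overlapped, with 25.5% to 59.9% against 55.5% to 81.5%. The separation also depended on single libraries. For Pcdh9 the intervals overlapped without control 1 (26.9% to 65.3% against 59.2% to 79.2%) and without NOVA2-overexpressing 2 (28.8% to 55.7% against 51.6% to 79.0%). For Magi1 they overlapped without control 2, with 33.9% to 60.6% against 59.5% to 72.5%. Ptprm stayed apart with any 1 library left out.

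Among all deposited events, the 3 members lay towards the large end of the differences, which ranged from -32.5 to 34.0 points. By absolute size, Pcdh9 ranked 8, Magi1 22 and Ptprm 30 of 1075. Among the 205 deposited cassette exons with higher PSI, Magi1 ranked 3 and Ptprm 5, and Pcdh9 ranked 2 of 119 Alt3 events. Absolute differences as large were held by 2.91% of the 549 cassette exons in the case of Ptprm and 2.00% in that of Magi1, and by 1.68% of Alt3 events in that of Pcdh9. The median absolute difference was 10.3 points in cassette exons and 10.9 points in Alt3 events. In log2 odds of inclusion, which give steps near 0% and 100% more weight, the differences were 1.56 for Ptprm, 1.43 for Magi1 and 1.68 for Pcdh9. On that scale Ptprm lay above Magi1, the reverse of their order in points. The reads behind all deposited events summed to 124374 to 193436 per library and were fewest in the control libraries. No event is listed with less than 5.01 points between the closest libraries of different groups.

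**Figure D3:**
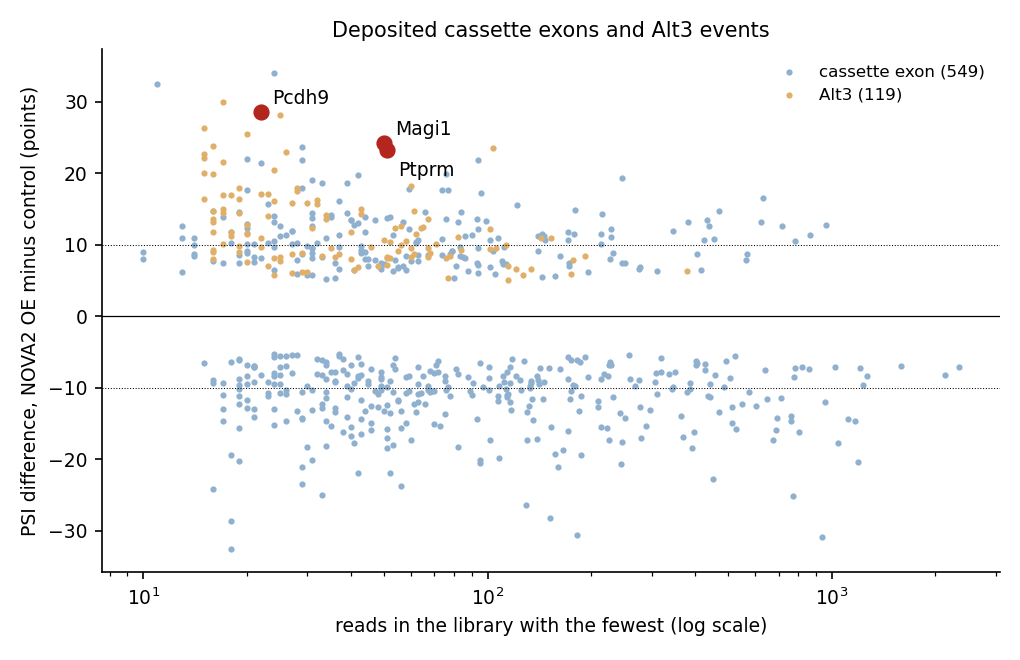
PSI difference in points, NOVA2-overexpressing (OE) minus control, against the reads in the shallowest library on a log scale, for the 549 cassette exons (blue) and 119 Alt3 events (yellow) of the deposited table. The 3 members (red) lie well above the dotted line at 10 points, Pcdh9 with 22 reads in its shallowest library, Magi1 with 50 and Ptprm with 51.

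The number of reads gives a rough view of how much of each transcript was sampled. Counting 1 inclusion junction and the skipping junction, Ptprm had 34.2 and 32.7 reads per 100000 reads of the table in control ECs and 53.0 and 36.1 in NOVA2-overexpressing ECs. NOVA2-overexpressing 1 stood above the other libraries, which lay close together. Magi1 had 27.3 and 40.7 in control ECs against 30.8 and 32.3 in NOVA2-overexpressing ECs, which lay between the control values. Pcdh9 had 20.9 and 14.1 against 21.7 and 19.1. These are shares of the reads on deposited events and not expression levels. In bulk RNA, fewer cells with a transcript and less of it per cell cannot be told apart.

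The 3 alternative parts have lengths divisible by 3, as have 52.6% of the deposited cassette exons and 56.0% of the Alt3 events that could be placed on the sequence. The Ptprm exon has 17 codons and no stop codon. It would enter the transcript with 31 exons exactly after codon 1044 of 1452, 71.9% along the reading frame, and give 1469 codons with the same end. The most hydrophobic stretch of 19 residues, taken for the single membrane span of the receptor, covers codons 746 to 764, and the active-site signature of tyrosine phosphatases starts at codon 1094. The added residues thus fall on the cytoplasmic side of the membrane and ahead of the catalytic loop. The Magi1 exon has 28 codons and enters 1 base into the codon after codon 569 of the transcript with 23 exons, 46.4% along, with 1255 codons when included and 1227 when skipped. The Pcdh9 part has 42 codons and starts after codon 1046 of the transcript with 4 exons, 87.5% along, or straight after the 1012 codons of exon 1 where exon 2 is left out. With exon 2, the reading frame has 1237 codons with the outer site and 1195 with the inner one. The most hydrophobic stretch of PCDH9 covers codons 817 to 835, inside exon 1, so the 42 codons left out more often belong to the cytoplasmic tail and not to the cadherin repeats outside the cell. Protein was not measured.

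Splice sites were read on the same sequences. All acceptors end in AG and the donors of the 3 exons begin with GT. Of the 20 nt before the AG, 16 were pyrimidines (80%) in Ptprm and 10 (50%) in Magi1. The other deposited cassette exons had a median of 75%, and 97.4% of them had at least as many pyrimidines as Magi1, whose acceptor was thus among the poorest in pyrimidines. In Pcdh9 both sites were rich in pyrimidines, with 15 of 20 (75%) before the outer and 16 of 20 (80%) before the inner site.

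YCAY tetramers, which are TCAT and TCAC with a first T and the corresponding CCAT and CCAC with a first C, were searched on the transcribed strand, overlapping ones included. They were counted in 200 nt of intron before the exon, in the alternative part and in the first 200 nt downstream of the exon. Such tetramers are frequent. At least 1 was present in 94.5% of 495 upstream and 95.2% of 503 downstream windows of other cassette exons, so presence alone separates nothing. Ptprm had 9 upstream, 1 in the exon and 2 downstream. A count of 9 or more upstream was found in 4.65% of the other cassette exons, whose median was 3, and in 1.05% of the 191 with a higher PSI. The mean upstream count was 3.03 in these 191 and 4.05 in the 304 with a lower PSI. A high upstream count was thus rarer among the exons that moved in the direction of Ptprm. Magi1 had 3 upstream, 2 in the exon and 6 downstream. Downstream, 16.9% of the other cassette exons had 6 or more, again with a median of 3, as had 22.8% of the 189 with a higher PSI. In Pcdh9 there were 2 before the outer site, 3 in the 126 nt and 1 after the exon, and 81.4% of 97 other Alt3 events had as many or more before the site.

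Most of the tetramers of Ptprm (9 of 12) thus lay upstream of the exon, and 6 of the 11 of Magi1 lay downstream. The Ptprm tetramers began at positions -194, -155, -149, -145, -115, -97, -92, -87 and -44, counted back from the base just before the exon. Those downstream of the Magi1 exon began at positions 30, 36, 40, 58, 78 and 165 of the intron. The 200 nt before the Ptprm exon (chr17:67047044-67047243) and the 200 nt after the Magi1 exon (chr6:93654071-93654270) are shown for these rows of tetramers, with each YCAY in capitals (mm9, minus strand).
Ptprm upstream: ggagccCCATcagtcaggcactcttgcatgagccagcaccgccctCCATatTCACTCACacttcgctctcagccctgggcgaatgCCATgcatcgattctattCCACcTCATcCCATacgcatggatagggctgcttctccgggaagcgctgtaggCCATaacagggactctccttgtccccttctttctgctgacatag
Magi1 downstream: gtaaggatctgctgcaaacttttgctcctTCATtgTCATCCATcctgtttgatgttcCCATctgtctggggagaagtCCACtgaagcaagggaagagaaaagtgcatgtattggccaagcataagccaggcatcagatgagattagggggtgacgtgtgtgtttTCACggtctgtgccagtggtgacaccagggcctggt
As a motif of the same form, YGAY, which covers TGAT and TGAC with a first T and the corresponding CGAT and CGAC with a first C, occurred 2, 0 and 3 times in Ptprm, 4, 0 and 3 times in Magi1 and 1, 2 and 5 times in Pcdh9, in the same order of windows. The upstream window of Ptprm thus held 9 YCAY and 2 YGAY, and the downstream window of Magi1 6 and 3. CGAT and CGAC hold the pair CG, which no YCAY tetramer holds, so the motifs differ in composition. As no count of YGAY around other exons is given, no enrichment of YCAY is read from this comparison. In Pcdh9 YGAY was the more frequent of the 2 after the exon. A match of 4 letters is not a binding site, and binding of NOVA2 was not measured.

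**Figure D4:**
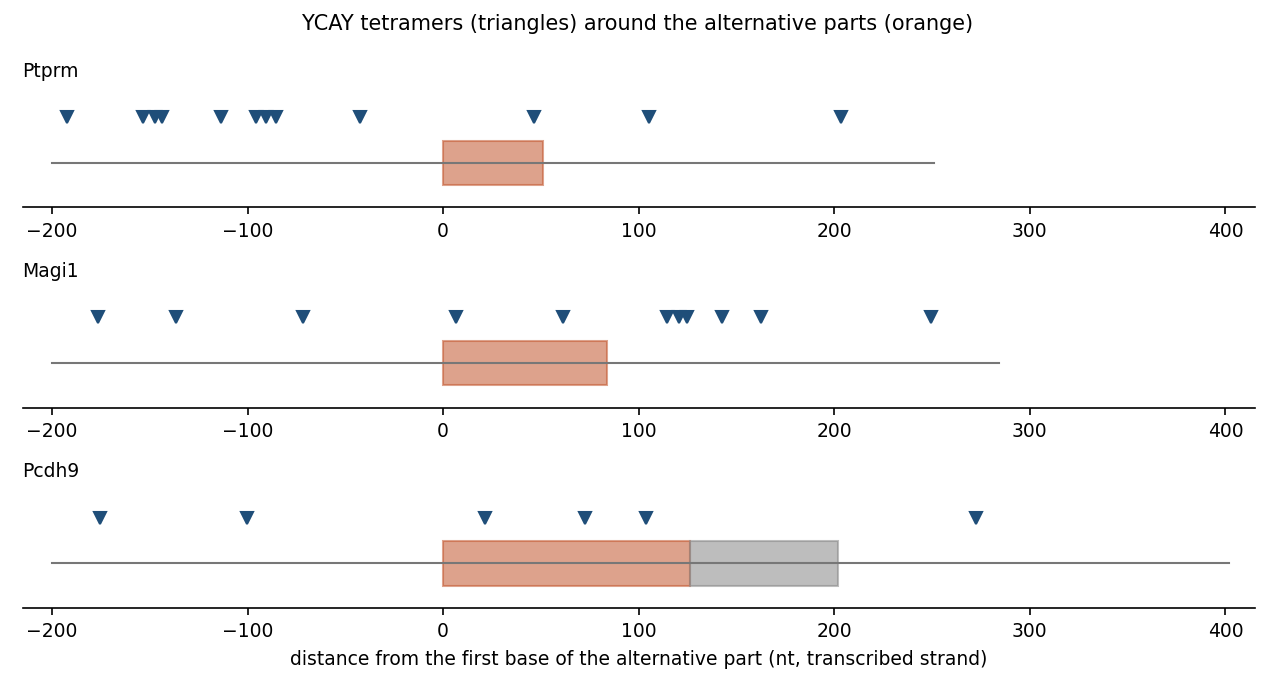
Positions of YCAY tetramers (triangles) around the alternative parts (orange boxes), as distance in nt from the first base of the alternative part on the transcribed strand, with 200 nt of flanking sequence as a line and the constant part of the Pcdh9 exon in grey. In Ptprm 9 of 12 triangles lie before the exon, and in Magi1 6 of 11 lie after it.

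Other genes of EC contacts were read from 5 lists with 77 symbols, in which a few genes have both an older and a newer name. In all, 9 events in 7 genes of these lists were in the table. Of these, 6 were higher and 1 lower by at least 10 points, with 2 under 10 points. Over all deposited events, 33.0% were higher and 20.1% lower by that size. Of the 6, 4 are alternative splice sites, which are listed with a higher PSI only (119 Alt3 and 96 events of alternative 5′ splice sites, Alt5, with 0 lower), so their direction is fixed by the listing. The R2B receptor phosphatases, the family of Ptprm, and the MAGI family had 1 event each, those of Ptprm and Magi1. For related genes such as Ptprk, Magi2 or Magi3 no event is listed, and their splicing was not analysed here. Without the members, 6 events in 4 genes remain. The 3 that were higher by at least 10 points are Alt3 or Alt5 events. In these lists the 3 cassette exons were all lower, 1 of them by at least 10 points. The lists miss some adhesion genes of the table, so this does not hold for all contact genes. Ceacam1, outside them, had cassette exons that differed by 21.985 and -24.12 points, on 20 and 16 reads in the shallowest library. Cassette exons of Ncam1, Alcam and Cadm1 differed by 9.805, -14.195 and -6.095 points, and an Alt3 event of Cldn12 by 5.125.

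Among the cadherins and protocadherins, Pcdh9 stood beside Cdh13, a cadherin held to the membrane by a lipid anchor. Both of its events, cassette exons, had a PSI near or at 100% in control ECs, with a mean of 99.6% ± 0.629 and 100% ± 0 (SD, n = 2). In NOVA2-overexpressing ECs the mean PSI was 93.2% ± 0.191 (SD, n = 2) for each. The differences of -6.36 and -6.83 points rest on 227 to 554 reads per library, more than any value of the members. The second exon had 0 skipping reads of 228 and 258 in control ECs. As many as 3 unseen reads would be 1.32% and 1.16% of these reads. Inclusion is counted on both sides of an exon and skipping on a single junction, so the share of skipping that could be missed is larger. In the adherens junction list, an Alt3 event of Pdlim5, an actin-bound PDZ and LIM protein, had a PSI of 18.3% ± 5.35 in control and 41.9% ± 3.05 in NOVA2-overexpressing ECs (SD, n = 2 each), a difference of 23.6 points on 104 to 191 reads per library. The listed site has an alternative length of 0 nt, so the higher PSI stands for more of the shorter form. The paper reports, with RT-PCR, that NOVA2 promotes skipping of an alternative exon of Pdlim5. This is probably the same event, as no other Pdlim5 event is listed and the paper's supplement describes a distal 3′ splice site for this gene. Fer, a tyrosine kinase that acts at cadherin contacts, had an Alt3 event with 58.0% ± 0.785 in control and 69.1% ± 4.16 in NOVA2-overexpressing ECs (SD, n = 2 each) on 82 to 136 reads. Its cassette exon of 146 nt had a PSI of 26.0% and 15.6% in control ECs and of 8.33% and 8.82% in NOVA2-overexpressing ECs, a difference of -12.2 points on 33 to 51 reads. Pard3, a polarity scaffold of the tight junction and polarity list, had an Alt5 event with 67.6% ± 1.29 and 78.5% ± 2.11 (SD, n = 2) on 81 to 161 reads. Intervals of the summed reads were apart for Pdlim5 and both Cdh13 exons and overlapped for both Fer events and Pard3.

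The events closest to the members in PSI over the 4 libraries were found by Euclidean distance within their own class, among events scored LOW or better in every library. For Ptprm they were exons of Pikfyve (33 nt, distance of 9.93 points), Epb4.1l2 (54 nt, 10.6 points) and BC067068 (94 nt, 13.9 points), of 447 candidates. Epb4.1l2 encodes a protein of the band 4.1 family that ties membrane proteins to actin, and its mean PSI was 26.3% ± 0.0212 and 42.9% ± 2.21 (SD, n = 2) on at least 633 reads per library. For Magi1 the closest were exons of Akap11 (84 nt, 13.9 points), Klra4 (207 nt, 14.9 points) and Flywch1 (94 nt, 15.7 points). The Akap11 exon, with the same length as that of Magi1, had a PSI of 44.2% ± 2.27 and 58.4% ± 1.52 (SD, n = 2) on 215 to 307 reads per library. Pcdh9 had as closest Alt3 events those of Helz (13.3 points), Zmym2 (13.6 points) and Sirt3 (16.5 points), of 75 candidates. In Zmym2 the PSI was 49.1% ± 3.74 and 72.1% ± 4.08 (SD, n = 2), on 26 to 29 reads per library. In all 9 the difference between groups was smaller than that of the member they were closest to. With Magi1 and Ptprm at ranks 3 and 5 of 205 and Pcdh9 at rank 2 of 119, few candidates had a larger one, so nothing is read from this. Pcdh9 itself, with control 2 scored VLOW, would not pass the coverage limit set for its neighbours.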

How the data were processed

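Libraries from control and NOVA2-overexpressing mouse ECs (n = 2 each) were sequenced by the authors on the HiSeq2500 platform and processed with vast-tools on the mm9 assembly (version not given in the sources used here). The deposited table holds, as made by the authors, the PSI as a percent for every event and library, and a quality string with coverage scores and junction reads before and after correction. The authors kept events that differed by more than 5 points between libraries of the groups, and did not pool replicates in the columns used. For the events reported in the paper they further required an absolute difference of at least 10 points. The paper gives 571 such events, the same number as counted here at that size. The column of the authors' own dPSI was not used, nor were 8 further columns of PSI and 8 of quality strings.

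Group means, SD and 95% Wilson intervals of the corrected reads were obtained with numpy 2.4.6, pandas 2.3.3 and scipy 1.17.1 (Python 3.11.15) and checked on simulated data. Plots were made with matplotlib 3.10.9. Depth is given as the reads of an event per library. Sequences came from the mm9 genome and GENCODE vM1, and hydropathy (Kyte-Doolittle) from biopython 1.88. As a check, 548 cassette exons were placed on it. AG stood before 545 of them, GT after 543 and GC after 5. Named genes were the members, genes of 5 junction lists with an event, and the 3 nearest events of each member. Related genes without an event, and a few adhesion genes outside the lists, are named as examples. Members and lists were chosen with earlier results of these data known. Alternatives changed the way replicates and junctions were joined, thresholds, coverage scores, windows and motifs, and left out each library.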

Additional observations from a re-analysis of the deposited data

How the results depend on the processing

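In all 27 alternatives for the members, PSI was higher in NOVA2-overexpressing ECs. This direction was largely set in advance, as every listed event has at least 5.01 points between the closest libraries of different groups. Leaving out a library could not reverse it, so no support is read from this count. With 1 library left out, the difference lay between 17.5 and 29.0 points for Ptprm, 19.2 and 29.2 for Magi1 and 24.7 and 32.3 for Pcdh9. On summed reads it was 22.2, 25.6 and 28.5 points. Averaging the uncorrected inclusion reads, an alternative chosen after seeing the data, gave 23.5 points for Ptprm and 24.2 for Magi1. The 12 YCAY tetramers around the Ptprm exon in windows of 200 nt became 6 in windows of 100 nt. In windows of 200 nt, YGAY came to 5 around the Ptprm exon, against 12 YCAY, and to 7 around the Magi1 exon, against 11 YCAY. Around the Pcdh9 event the order was reversed, with 8 YGAY against 6 YCAY. Events with an absolute difference of at least 10 points were 571 of the table, 520 to 570 with 1 library left out, 312 with a score of OK or better and 191 at a threshold of 15 points. In the junction lists the 7 events became 4 at 15 points and 5 to 7 with 1 library left out. Intervals were apart for 432 events, for 229 at a level of 99% and for 280 to 314 with 1 library left out, 280 without control 2. Fewer reads widen the intervals in the last. The control libraries and Pcdh9 had the fewest reads, and depth limits their values most. No paired analysis was possible because the members' values come from no test, and the shared replicate numbers are not stated to mark a common culture.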
